A study of Rattus norvegicus with 17 samples.

Results

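The comparison described here sets livers of pups whose mothers were deprived of choline only during lactation (ND) against livers of pups whose mothers received adequate choline throughout pregnancy and lactation (NN). The members were chosen by the titles of the arrays, 4 titled for the first diet and 4 for the second, which is 8 of the 17 arrays of the series. Each array holds liver RNA of 1 male Wistar rat killed at 24 days of age, with 1 pup taken per litter. All mothers, those of the NN pups included, had first been fed a choline-deficient AIN-93 M diet for 16 weeks to produce fatty liver, and were mated with healthy males. From the start of pregnancy the mothers of both groups received the standard AIN-93 G diet; after delivery the ND mothers went back to a deficient diet and the NN mothers stayed on the standard one. The remaining arrays are 4 livers of pups whose mothers were deprived in both periods (DD) and 5 of pups whose mothers were deprived in pregnancy only (DN). They enter the estimate of the spread and the test of whether the lactation diet acted differently after a deficient pregnancy. No group of the design had mothers that were never deprived, so NN is a repleted group and not an untreated one.

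Choline reaches a suckling pup through milk and has 2 main uses in the liver. It is built into phosphatidylcholine, which hepatocytes need to export triglyceride in very low density lipoprotein, or it is oxidised to betaine, whose methyl group remethylates homocysteine to methionine. A liver short of choline can make phosphatidylcholine by methylating phosphatidylethanolamine, at the cost of S-adenosylmethionine, and a lack of choline in adult rodents is known for fat accumulation in hepatocytes.

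The values are signals on the log2 scale, so that a difference of 1 is a 2-fold change. A free-text field of every sample names the prostate cancer line LnCap, against a liver tissue label. The 7 measured markers of hepatocytes, among them albumin and transferrin, had a mean signal of 10.76 to 10.90 in ND livers and 10.75 to 10.87 in NN livers, against a median of 2.58 over all values, and the arrays were read as liver. The RNA came from whole liver, and in bulk tissue fewer cells of a type and less RNA per cell cannot be told apart. The spread of an array, the SD over all its probe sets, averaged 1.74 ± 0.041 (SD, n = 4) in ND and 1.70 ± 0.057 (SD, n = 4) in NN (2-sided exact permutation test, p = 0.257, where 0.0286 is the smallest that 4 against 4 arrays can give). Of the NN arrays, NN 2 stood at 1.79 and the other 3 between 1.66 and 1.68, while the ND arrays ran from 1.69 to 1.79. The replicates are separate pups from separate litters, and the number of arrays limits the precision.

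No gene was called between ND and NN livers. Of 12912 genes tested in limma, 0 had a Benjamini-Hochberg adjusted p under 0.05 (0% called), and the smallest adjusted p was 0.889. At an unadjusted p under 0.05 stood 598 genes, which is 4.63% of those tested: 355 with a higher mean in ND (2.75%) and 243 with a lower one (1.88%). All 4 ND livers lay above all 4 NN livers for 177 genes (1.37%) and below them for 156 (1.21%). In either direction 2.58% of genes did not overlap, and 4 against 4 exchangeable livers separate completely with a probability of 0.0286. A gene without overlap is therefore not by itself a sign of a group difference. The 4.63% at unadjusted p was likewise below the 0.05 that this threshold gives on average when no gene differs. The differences were small. From the 5th to the 95th percentile they ran from -0.29 to 0.42, with a median of -0.0084, and 10 genes exceeded 1 and 5 lay below -1. Few of these large differences separated the livers, since 1 of the 10 and 2 of the 5 had groups that did not overlap. The median standard error was 0.17, and 48.4% of genes had a higher mean in ND.

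**Figure D1:**
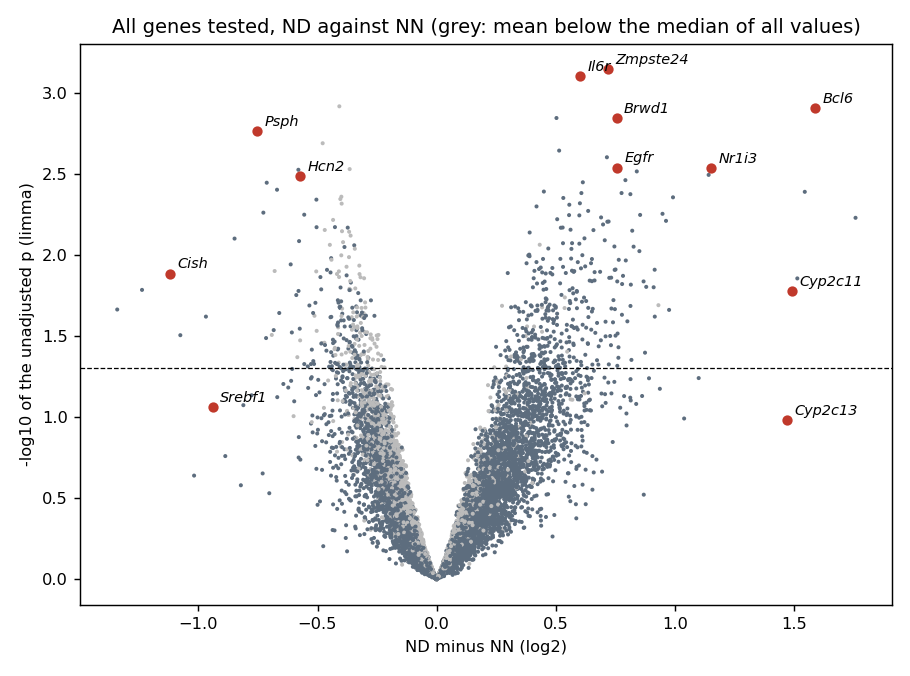
Each point is 1 of 12912 genes, with the ND minus NN difference (log2) on the horizontal axis and -log10 of the unadjusted limma p on the vertical axis. Grey points have a mean below the median of all values, red points are named, and points above the dashed line are the 598 genes of the unadjusted list. Of the named genes, Bcl6 stands farthest right at 1.59 and Cish farthest left at -1.12.

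Bright and dim genes were divided unevenly between the directions. Of the 355 genes listed higher in ND, 15 had a mean signal under the median of all values, against 109 of the 243 listed lower and 4051 of all 12912. The shares of all genes set beside gene lists below include these dim genes. Shares among brighter genes alone were not counted. The lengths of these lists moved with single arrays. The higher list held 828 genes without NN 2 and 637 without ND 2, but 186 without ND 4, 194 without NN 4, 223 without NN 3 and 232 without ND 1. The lower list held 584 without NN 2 and 373 without ND 2, but 122 without ND 4. Adjusted calls numbered 0 whichever of the 17 arrays was left out. With array spread as a covariate the lists held 156 and 212 genes. Spread was higher on average in ND, and its part in the results was not tested.

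**Figure D2:**
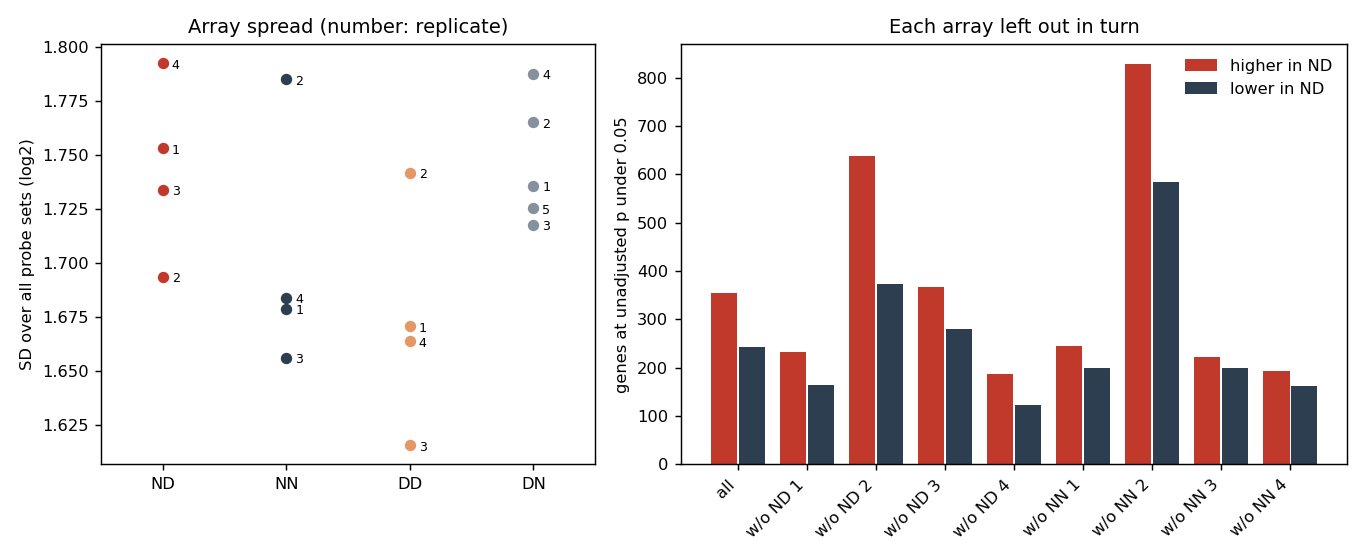
Left, the SD over all probe sets (log2) of each array by group, with the replicate number beside each point. Right, bars starting at 0 count genes at unadjusted p under 0.05 with all arrays and with each ND or NN array left out; the counts lie between 186 and 828 for genes higher in ND and between 122 and 584 for genes lower in ND.

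The genes with the smallest p on the higher side included a repressor, a cytokine receptor and a growth factor receptor. Bcl6, a transcriptional repressor that growth hormone signalling keeps low in liver, read 5.44, 5.79, 5.09 and 3.91 in ND livers and 3.11, 3.43, 3.36 and 3.98 in NN livers. All ND livers but 1 ND livers lay above every NN liver, and ND 4 lay within the NN range. Its difference was 1.59 ± 0.414 (SE), a 3.01-fold higher mean in ND (unadjusted p = 0.00125). Il6r, the receptor subunit that binds interleukin-6, read 7.08, 7.20, 7.05 and 6.92 in ND livers and 6.32, 6.45, 6.36 and 6.70 in NN livers, so that the groups did not overlap (difference 0.60 ± 0.149).

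Nr1i3, the constitutive androstane receptor that controls drug-metabolising genes, read 5.26, 6.21, 5.85 and 5.86 in ND livers and 4.12, 5.82, 3.96 and 4.67 in NN livers. NN 2 stood among the ND values and the other 3 NN livers below all of them, with a difference of 1.15 ± 0.334 that was 1.55 without NN 2. Egfr, the epidermal growth factor receptor of hepatocytes, read 6.38, 6.45, 6.23 and 6.16 in ND livers and 5.79, 6.01, 5.55 and 4.82 in NN livers, without overlap (0.76 ± 0.220). Brwd1, a bromodomain protein, also separated the groups, at 4.24, 4.28, 4.33 and 4.64 in ND livers and 3.26, 3.93, 3.96 and 3.30 in NN livers (0.76 ± 0.201).

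Baiap2l1, which links membranes to actin, averaged 5.59 ± 0.33 (SD, n = 4) in ND and 4.80 ± 0.36 (SD, n = 4) in NN. Prickle1, of the planar cell polarity pathway, averaged 3.47 ± 0.17 in ND and 2.97 ± 0.21 in NN. Med7, a Mediator subunit, averaged 2.84 ± 0.24 in ND and 2.33 ± 0.11 in NN, and none of these 3 genes overlapped between the groups. Overlapping were Zmpste24, the prelamin A protease (0.72 ± 0.176), Slc20a1, a phosphate transporter (0.71 ± 0.203), Clmn, calmin (0.84 ± 0.245), and the zinc finger gene Zfp354a (1.14 ± 0.335). These 12 genes were the highest-ranked above the median signal, none of them passed the test, and all had the same direction under every alternative tried. Their size moved. With array spread as a covariate the difference was 0.82 for Nr1i3, 0.54 for Clmn, 0.51 for Slc20a1 and 0.54 for Zmpste24. It was not smaller for Bcl6 (1.83), Zfp354a (1.25), Prickle1 (0.55) and Med7 (0.52).

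On the lower side the first gene was Psph, the phosphatase that completes serine synthesis. It read 3.92, 3.67, 3.34 and 4.29 in ND livers and 4.39, 4.64, 4.66 and 4.54 in NN livers, a difference of -0.75 ± 0.204 (unadjusted p = 0.00173). The groups did not overlap, and the NN values were the closely spaced ones. DD livers averaged 3.66 ± 0.26 (SD, n = 4) and DN livers 3.74 ± 0.35 (SD, n = 5), near the ND mean of 3.80 ± 0.40 (SD, n = 4), with NN at 4.56 ± 0.12 (SD, n = 4).

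Fbl, fibrillarin of the nucleolus, averaged 3.62 ± 0.28 in ND and 4.35 ± 0.38 in NN without overlap. Uqcc2, an assembly factor of respiratory complex III, averaged 2.24 ± 0.29 in ND and 2.96 ± 0.22 in NN, also without overlap. The mean of Uqcc2 over all arrays was 2.66, near the median of all values. Several of the other genes on this side are known chiefly from tissues other than liver, and their signals lay near the median of all values. They were Hcn2, a pacemaker channel (-0.57 ± 0.168), Oprd1, the delta opioid receptor (-0.58 ± 0.169), Foxe1, a thyroid transcription factor (-0.50 ± 0.164), and Nmnat2, a neuronal NAD synthesis enzyme (-0.43 ± 0.139). Hcn2 and Foxe1 did not overlap between the groups, while Oprd1 and Nmnat2 did. The cytokine gene Tnf did not overlap, with a difference of -0.37 ± 0.122 and a mean over all arrays of 2.84, near the median of all values. Apol2 (-0.67 ± 0.202), the kinesin Kif12 (-0.50 ± 0.155), the homeobox gene Irx1 (-0.56 ± 0.176) and Rps18l2 (-0.85 ± 0.283) complete the 12, and all of these overlapped. Rps18l2 resembles a ribosomal protein gene with many copies, so its probe set may read more than 1 locus. The difference with array spread as a covariate was -0.42 for Oprd1, -0.35 for Foxe1, -0.30 for Nmnat2 and -0.45 for Apol2.

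**Figure D3:**
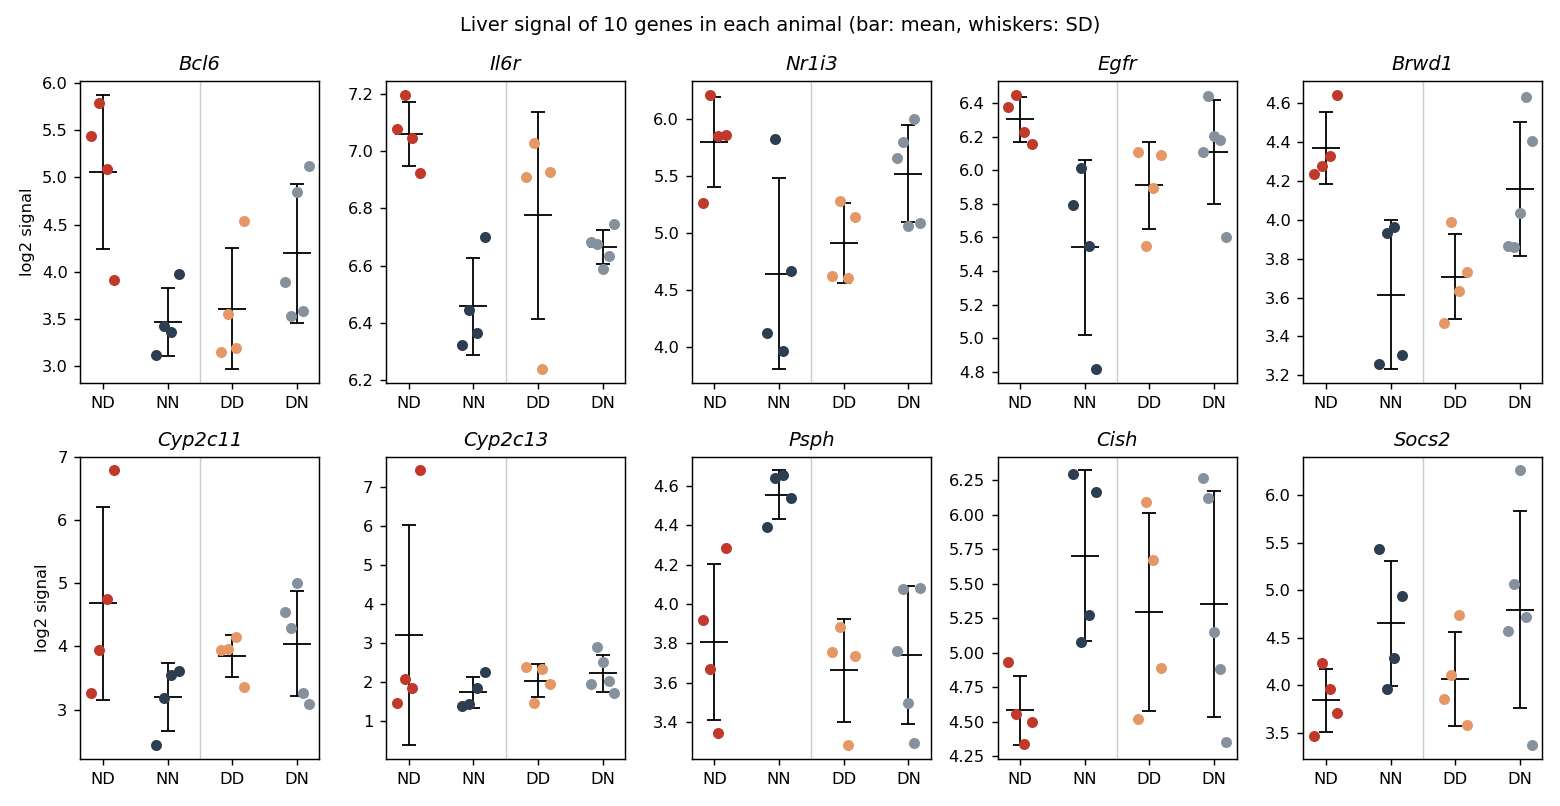
Log2 signal of 10 genes in each liver, in ND, NN, DD and DN (4, 4, 4 and 5 livers); the short bar is the mean and the whiskers the SD. Il6r, Egfr, Brwd1, Psph and Cish do not overlap between ND and NN, while Cyp2c13 in ND rests on 1 liver at 7.43.

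Growth hormone acts on liver through its receptor, JAK2 and STAT5, which switches on a set of feedback inhibitors and growth genes. Of 24 listed genes of this pathway 17 were tested, with 9 higher and 8 lower in ND and a median difference of 0.0062, against -0.0084 over all genes. Cish, a feedback inhibitor that STAT5 induces, read 4.93, 4.56, 4.34 and 4.50 in ND livers and 6.29, 5.07, 5.27 and 6.17 in NN livers. All 4 ND livers lay below all 4 NN livers, with a difference of -1.12 ± 0.405 and a 2.17-fold lower mean in ND (unadjusted p = 0.0131, adjusted p = 0.889). Socs2, another STAT5-induced inhibitor, read 3.46, 4.24, 3.96 and 3.71 in ND livers and 5.43, 3.96, 4.29 and 4.94 in NN livers, where the ranges met (-0.81 ± 0.444). Bcl6, which STAT5 represses, is described above.

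The Cish promoter is shown because the gene is a standard readout of STAT5 and had the lowest ND minus NN difference of the 17 tested genes of the pathway. The window, from RefSeq for build GRCr8, is chr8:116850719-116851018 on the plus strand, 250 bases before to 50 after the annotated start. Capitals mark the letters TTCNNNGAA, which read the same on both strands and are the spacing that STAT factors bind.
Cish: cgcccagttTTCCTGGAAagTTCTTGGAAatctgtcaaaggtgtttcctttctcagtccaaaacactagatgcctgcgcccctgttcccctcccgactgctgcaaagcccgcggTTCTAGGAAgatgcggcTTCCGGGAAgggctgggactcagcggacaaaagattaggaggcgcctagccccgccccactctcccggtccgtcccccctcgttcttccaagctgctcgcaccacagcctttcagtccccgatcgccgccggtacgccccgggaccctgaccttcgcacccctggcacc
The 4 matches begin 241, 230, 136 and 119 bases before the start. At least 1 match was found in 8.68% of 27457 promoter windows of this length, and 4 or more in 2 of them. Among 30 named genes with a window, Cish included after its values were seen, Zfp354a, Apol2 and Cish held a match. The letters TGATGNAA, part of the element that the stress factor ATF4 binds, were in 0 of these 30 windows on either strand and in 3.82% of all windows. A match describes letters in a window and was not tested for binding.

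In adult rats growth hormone is pulsed in males, and a set of liver genes is male-predominant. Of 10 listed genes 4 were tested, all with a higher mean in ND and a median difference of 1.48, or 0.52 without ND 4. Cyp2c11, the main male steroid hydroxylase, read 3.26, 3.94, 4.76 and 6.79 in ND livers and 2.44, 3.18, 3.54 and 3.61 in NN livers (1.49 ± 0.564, unadjusted p = 0.0167). Without ND 4 its difference was 0.79. Cyp2c13, another male-predominant P450, read 1.48, 2.09, 1.84 and 7.43 in ND livers and 1.40, 1.44, 1.85 and 2.27 in NN livers. ND 4 alone carried its difference of 1.47 ± 0.860, which was 0.065 without that liver. Cyp3a18 (0.49 ± 0.345) overlapped between the groups. Bcl6, the remaining tested member of this list, was lowest among the ND livers in ND 4. It is the gene that STAT5 represses, so the 4 genes do not share 1 response to growth hormone.

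The 3 tested female-predominant genes also had higher means in ND. Cyp2a1, a testosterone hydroxylase, read 9.67, 9.82, 9.60 and 9.60 in ND livers and 9.40, 9.49, 8.87 and 8.69 in NN livers, without overlap (0.56 ± 0.217). Cyp2c12, the main female steroid hydroxylase, differed by 0.21 ± 0.210. The animals were weanlings, and both lists describe adults.

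Enzymes that oxidise choline and use betaine had a median difference of 0.26, with 7 of 9 tested genes higher in ND and 0 at unadjusted p under 0.05. Bhmt, which transfers a methyl group from betaine to homocysteine, read 10.12, 9.89, 10.15 and 9.45 in ND livers and 9.61, 9.14, 9.59 and 9.21 in NN livers. ND 1, ND 2 and ND 3 lay above all NN livers, and the difference was 0.51 ± 0.281. Bhmt2 differed by 0.24 ± 0.145, Dmgdh, which demethylates dimethylglycine, by 0.28 ± 0.182, and Pipox, a sarcosine oxidase, by 0.35 ± 0.242. Gnmt, which consumes S-adenosylmethionine to methylate glycine, averaged 7.79 ± 0.54 in ND and 7.34 ± 0.60 in NN (0.45 ± 0.372). Chdh, the first enzyme of choline oxidation, averaged 6.67 ± 0.33 in ND and 6.62 ± 0.39 in NN.

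In the methionine cycle and transsulfuration 12 of 18 genes were higher in ND, with a median of 0.23. At unadjusted p under 0.05 stood 1 higher gene, against 2.75% of all genes. Cdo1, which oxidises cysteine to its sulfinate, read 9.58, 9.32, 9.61 and 9.49 in ND livers and 9.04, 9.50, 9.05 and 8.78 in NN livers (0.41 ± 0.149). The pattern was again that NN 2 stood with the ND livers. Cth, which makes cysteine, differed by 0.37 ± 0.185, the spermidine pathway enzyme Amd1 by 0.45 ± 0.218, and Mat2b, a regulatory subunit of methionine adenosyltransferase, by 0.48 ± 0.254. Of the catalytic subunits, the hepatocyte form Mat1a averaged 9.76 ± 0.12 in ND and 9.55 ± 0.16 in NN, and Mat2a, the form of other and growing cells, 6.46 ± 0.28 in ND and 6.81 ± 0.38 in NN.

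Serine synthesis and folate enzymes were divided, with 7 of 14 higher, 7 lower and a median of 0.048. Besides Psph, Slc25a32, the mitochondrial folate carrier, did not overlap (4.15, 4.26, 3.98 and 4.20 in ND livers against 3.76, 3.90, 3.08 and 3.56 in NN livers, 0.57 ± 0.218). Aldh1l2, a mitochondrial formyltetrahydrofolate dehydrogenase, read 6.33, 5.50, 6.27 and 6.39 in ND livers and 5.62, 5.53, 5.27 and 5.73 in NN livers. ND 2 lay below the highest NN livers and the other 3 ND livers above all of them (0.59 ± 0.282). Mthfd1, which interconverts folate forms, differed by 0.35 ± 0.194.

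Phosphatidylcholine synthesis and choline transport had a median of 0.027, with 10 of 19 genes higher in ND. Pemt, which methylates phosphatidylethanolamine to phosphatidylcholine, read 9.04, 8.34, 8.76 and 8.23 in ND livers and 8.67, 8.91, 8.47 and 8.87 in NN livers (-0.14 ± 0.193, a 95% interval that covers 0). Pcyt1a, the rate-limiting enzyme of the choline branch, averaged 4.60 ± 0.12 in ND and 4.53 ± 0.18 in NN. Chpt1, which completes that branch, differed by 0.60 ± 0.302 with ranges that overlapped, and the phospholipase gene Pla2g6 by -0.27 ± 0.143 without overlap. The list had 1 gene at unadjusted p under 0.05, Slc44a3, which was higher in ND, as were 2.75% of all genes at that threshold. The choline-like transporters Slc44a3 (0.24 ± 0.115) and Slc44a5 (-0.28 ± 0.142) were dim. Chka, Slc44a1 and Igf1 were not analysed here.

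P450 and flavin monooxygenase genes were the longest list, with 34 of 47 higher in ND and a median of 0.18. At unadjusted p under 0.05 stood 6 higher genes and 1 lower, where 2.75% and 1.88% of all genes did. Only 7 of the 47 were dim, so these shares are not those of genes of like signal. Fmo1, a flavin monooxygenase that handles amines and sulfides, read 8.00, 7.41, 7.75 and 8.77 in ND livers and 6.99, 7.96, 7.21 and 6.87 in NN livers (0.72 ± 0.265). The lower gene, Cyp3a9, was dim and averaged 1.56 ± 0.18 in ND and 1.95 ± 0.22 in NN. With array spread as a covariate the list's median was 0.020.

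Conjugation enzymes had 16 of 23 genes higher in ND and a median of 0.24, or 0.041 without ND 4. Sult1a1, a phenol sulfotransferase, differed by 0.51 ± 0.203. The glutathione transferase Gstm2 read 8.13, 7.64, 7.89 and 8.06 in ND livers and 7.57, 7.28, 7.49 and 7.41 in NN livers without overlap (0.49 ± 0.253), whereas Gsta2 (0.86 ± 0.454) and Gstk1 (0.55 ± 0.305) overlapped. In bile acid synthesis and transport 14 of 19 genes were higher, with a median of 0.17 and 0 at unadjusted p under 0.05. That median was 0.31 without NN 2 and 0.087 without NN 3, and 0.092 with array spread as a covariate. Its members of smallest p were the uptake transporters Slco1b2 (0.59 ± 0.337) and Slco1a4 (0.61 ± 0.396), the side-chain oxidase Acox2 (0.28 ± 0.164) and the reductase Akr1d1 (0.40 ± 0.282).

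Lipogenic genes were higher in ND in 16 of 20 cases, with a median of 0.11 that was -0.022 without ND 4 and 0.29 without ND 3. Srebf1, the regulator of the pathway, read 8.50, 7.12, 7.02 and 8.80 in ND livers and 9.04, 8.74, 8.20 and 9.22 in NN livers (-0.94 ± 0.519). ND 2 and ND 3 lay below the NN range, ND 1 and ND 4 within it. Lpin1, a phosphatidate phosphatase, differed by 0.81 ± 0.402, and Pklr, liver pyruvate kinase, by 0.44 ± 0.268. Cholesterol synthesis was at a median of 0.031 with 10 of 17 higher, and at -0.26 without ND 1. In that list Insig2, which retains the SREBP complex in the endoplasmic reticulum, read 7.48, 7.42, 7.17 and 7.79 in ND livers and 7.11, 6.97, 7.04 and 6.93 in NN livers without overlap (0.45 ± 0.212), and Ebp, a sterol isomerase, differed by 0.38 ± 0.213.

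In fatty acid oxidation and PPARA targets 24 of 40 genes were higher in ND, for a median of 0.10, with 2 of them and 3 lower genes at unadjusted p under 0.05, against 2.75% and 1.88% of all genes. The median was 0.021 without ND 4 and -0.077 with array spread as a covariate. Ppargc1a, a coactivator of oxidative genes, read 3.52, 5.04, 3.55 and 3.67 in ND livers and 3.10, 3.46, 3.07 and 3.17 in NN livers. The groups did not overlap, but ND 2 stood far above the rest, and the difference of 0.75 ± 0.297 was 0.38 without it. Etfdh, which passes electrons from acyl-CoA dehydrogenases to ubiquinone, differed by 0.49 ± 0.201. The acyl-CoA thioesterases Acot2 (-0.68 ± 0.288) and Acot3 (-0.57 ± 0.241) had lower means in ND. Lipid droplet and export genes had a median of 0.054 with 19 of 28 higher and 0 at unadjusted p under 0.05; Plin5, a droplet coat protein, differed by -0.24 ± 0.126, Aadac, a lipase, by 0.80 ± 0.452, and Apob, the structural protein of very low density lipoprotein, by 0.18 ± 0.124.

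Genes of fasting and FOXO control had the largest median among lists of more than 10 tested genes, 0.37, with 16 of 21 higher in ND and 3 of these at unadjusted p under 0.05, against 2.75% of all genes. The median was 0.20 without NN 3 and 0.15 with array spread as a covariate. Besides Bcl6 and Ppargc1a the third was Ddit4, an inhibitor of the growth kinase mTORC1, at 4.15, 4.14, 3.99 and 3.90 in ND livers and 3.65, 3.56, 3.33 and 4.03 in NN livers (0.40 ± 0.169). Gluconeogenesis and amino acid catabolism had 22 of 31 genes higher and a median of 0.13, or 0.0011 with the covariate. Tdo2, the first enzyme of tryptophan breakdown, read 8.49, 8.70, 8.55 and 8.83 in ND livers and 8.22, 8.57, 8.22 and 7.71 in NN livers (0.46 ± 0.173). Tat, tyrosine aminotransferase, read 9.41, 9.53, 8.35 and 8.45 in ND livers and 8.32, 8.54, 7.99 and 8.25 in NN livers, so that ND 1 and ND 2 were high (0.66 ± 0.317).

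In the urea cycle 5 of 6 genes were higher in ND, with a median of 0.19. Slc7a2, the arginine transporter of hepatocytes, read 8.15, 8.12, 8.31 and 7.53 in ND livers and 7.63, 7.68, 7.06 and 7.09 in NN livers (0.66 ± 0.244). Ass1, argininosuccinate synthase, differed by 0.53 ± 0.245 and Cps1, which starts the cycle, by 0.20 ± 0.126.

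Lists of stress, signalling and growth showed small medians. Genes of ATF4 and the unfolded protein response stood at 0.10 with 19 of 29 higher, among them Herpud1, of endoplasmic reticulum degradation (0.51 ± 0.248). Interleukin-6 family and acute phase genes stood at 0.055 with 18 of 29 higher; besides Il6r, Orm1, an acute phase glycoprotein, read 7.29, 6.36, 6.76 and 6.90 in ND livers and 6.32, 6.22, 6.18 and 6.05 in NN livers without overlap (0.64 ± 0.312). In the same list the kinase Jak1 differed by 0.41 ± 0.189 and the transcription factor Cebpb by -0.35 ± 0.165. Genes of the suckling to weaning period stood at 0.12 with 14 of 20 higher, among them Afm, a vitamin E binding plasma protein (0.39 ± 0.155), and Zbtb20, a repressor of alpha-fetoprotein (0.65 ± 0.307).

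Circadian genes stood at a median of 0.086 with 7 of 12 higher. Nfil3, a clock-controlled repressor, read 4.72, 4.75, 4.91 and 4.81 in ND livers and 5.06, 5.04, 5.08 and 4.98 in NN livers, which did not overlap, with a difference of -0.24 ± 0.163. Noct, a rhythmic phosphatase, did not overlap in the other direction (0.39 ± 0.199), whereas Clock (0.56 ± 0.329) and Cry1 (-0.38 ± 0.276) overlapped. Immediate early and stress genes had the lowest median, -0.14, with 17 of 25 lower in ND. Of these 1 was at unadjusted p under 0.05, Fos (-0.36 ± 0.150), against 1.88% of all genes. Cell cycle genes stood at -0.015 with 15 of 29 lower, where Aurkb (-0.33 ± 0.193) and the replication helicase subunit Mcm6 (-0.28 ± 0.238) had the smallest p. Respiratory chain genes stood at 0.051 with 21 of 35 higher (Ndufb10 of complex I, 0.31 ± 0.167), and genes that write, erase or read DNA methylation at 0.052 with 8 of 13 higher (Mbd1, a methyl-CpG reader, 0.36 ± 0.162).

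Among markers of other liver cells, extracellular matrix and stellate cell genes were higher in 30 of 35 cases, with a median of 0.16 and 4 genes at unadjusted p under 0.05, against 2.75% of all genes. The mean signal of the list lay between 4.47 and 4.75 in ND livers and between 4.37 and 4.55 in NN livers. Dcn, the matrix proteoglycan decorin, read 3.40, 3.26, 3.57 and 3.76 in ND livers and 3.00, 3.07, 2.64 and 3.00 in NN livers without overlap (0.57 ± 0.192). DD livers averaged 3.55 ± 0.22 (SD, n = 4) and DN livers 3.60 ± 0.40 (SD, n = 5) for Dcn, so that NN was the lowest group. Mmp2, a matrix protease (0.47 ± 0.186), Hgf, a growth factor of stellate cells (0.57 ± 0.235), and Tagln, of contractile cells (0.53 ± 0.223), overlapped. With array spread as a covariate the list's median was 0.045.

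Endothelial genes had a median of 0.15 with 11 of 15 higher, led by Dnase1l3, a nuclease of sinusoidal endothelium (0.57 ± 0.204), and Emcn, endomucin (0.40 ± 0.226). Kupffer cell and macrophage genes had a median of 0.053 with 16 of 22 higher. At unadjusted p under 0.05 stood 1 gene, a lower one, against 1.88% of all genes. It was Fcgr1a, an antibody receptor, at 3.28, 3.17, 3.22 and 3.34 in ND livers and 3.83, 3.81, 3.45 and 3.51 in NN livers. Its groups did not overlap (-0.40 ± 0.159). Biliary genes (median -0.13, 6 of 8 lower) held Anxa4 (0.43 ± 0.263) and Krt7 (-0.34 ± 0.220). Lymphocyte and granulocyte genes (-0.082, 10 of 16 lower) held Nkg7 (-0.27 ± 0.146) and Lck (-0.23 ± 0.128), and erythroid genes stood at 0.037, with 5 of 9 higher and Rhag at -0.16 ± 0.126. Genes of pancreas, muscle, fat and kidney were lower in 15 of 18 cases with a median of -0.094, among them Acta1 (-0.50 ± 0.246) and Aqp2 (-0.32 ± 0.195). The mean signal of that last list was 2.58 to 2.84 in ND livers and 2.67 to 3.01 in NN livers, near the median of all values. The part of cell composition in the other results was not tested. Over all 33 lists, 28 had a median above 0, where 48.4% of all genes tested had a higher mean in ND. Of all 12912 genes 4051 were dim, against 7 of 47 in the P450 list, 0 of 21 in the fasting list and 12 of 16 in the lymphocyte list. The share with a higher mean among brighter genes was not counted, so the 28 lists cannot be read as a trait of their pathways. Some lists share members, such as Bcl6, so the lists are not independent. Of the 28, 12 lay below 0 with array spread as a covariate, between -0.095 and -0.0013, and 4 without ND 4.

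**Figure D4:**
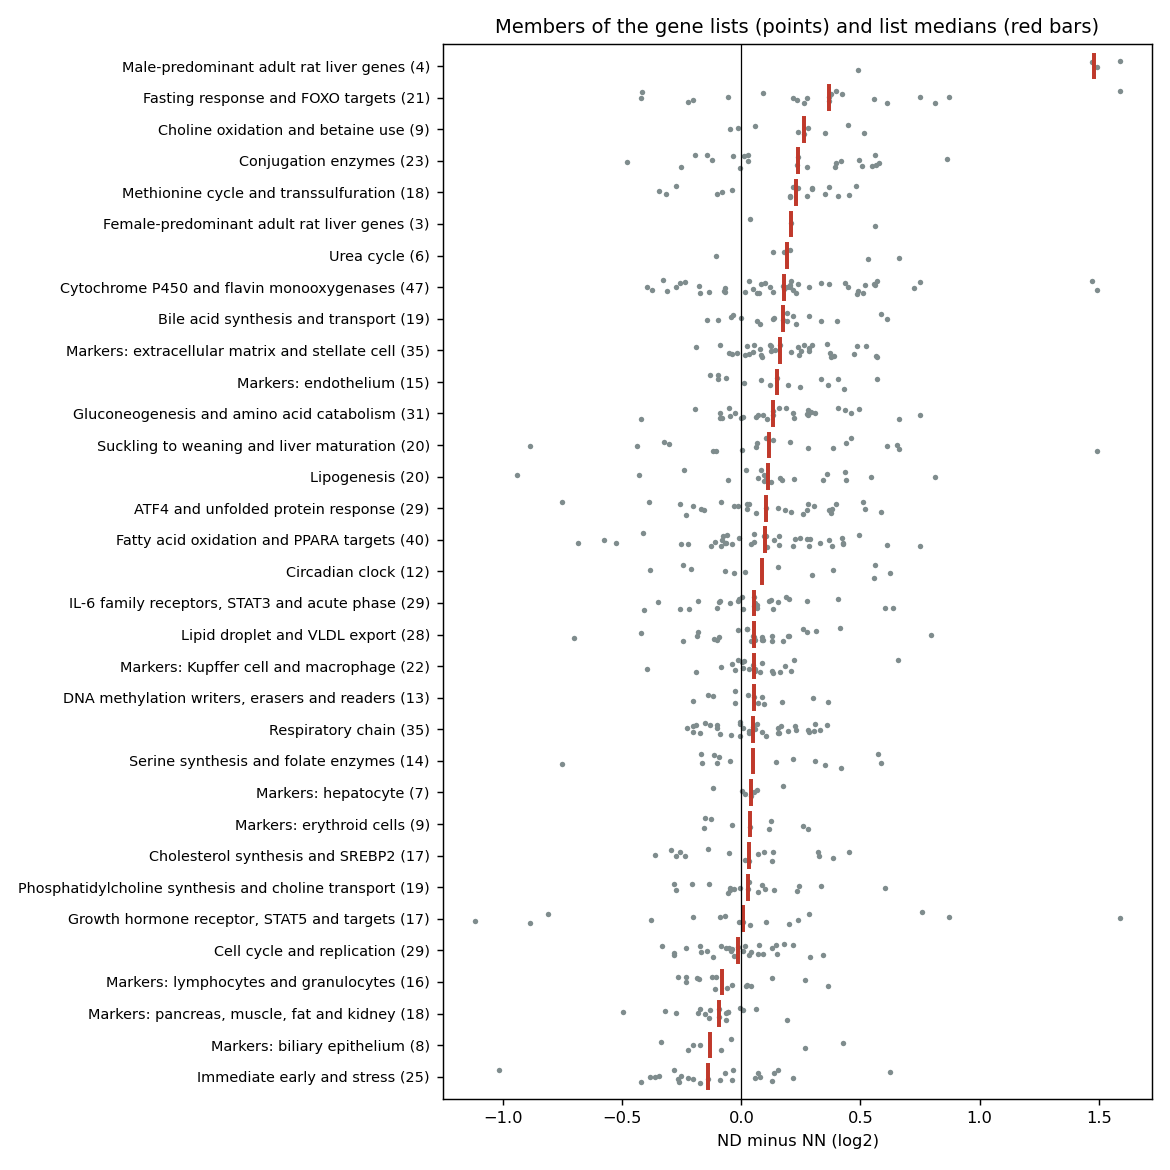
Each row is a gene list with the number of genes tested in brackets; points are members and the red bar the list's median, on a horizontal axis of ND minus NN (log2). The medians run from -0.14 for immediate early and stress genes to 1.48 for the 4 male-predominant genes (0.52 without ND 4), and 0 of the members were called.

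The same change of lactation diet was also made after a deficient pregnancy, in DD and DN litters, which share no liver with ND and NN. Across the 12912 genes the ND minus NN and DD minus DN differences had a Pearson correlation of -0.518, given as a description, since genes are not independent and each array enters all of its group's values. Of the 355 genes listed higher in ND, 30 had a DD minus DN difference of the same sign (8.45%), and of the 243 listed lower, 49 (20.2%). The same share over all 12912 genes was not counted, so these percentages cannot be read as a trait of the listed genes. The test of the difference itself, (ND minus NN) minus (DD minus DN), called 0 genes in limma (0%, smallest adjusted p = 0.114), with 2580 genes at unadjusted p under 0.05 (20.0%), 1531 positive (11.9%) and 1049 negative (8.12%).

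The genes named for the smallest p in that test had opposite signs after the 2 pregnancy diets. Choosing genes by that test favours such a shape, so it is described and is not a separate result. Plgrkt, a plasminogen receptor, averaged 3.23 ± 0.11 in ND and 2.93 ± 0.05 in NN, but 2.57 ± 0.18 in DD and 3.08 ± 0.08 in DN. The peptidase gene Cpq averaged 6.41 ± 0.25 in ND and 5.97 ± 0.12 in NN, with 5.78 ± 0.31 in DD and 6.46 ± 0.19 in DN. Phaf1, of autophagy, and Ccar1, a transcriptional coactivator, had the same shape, with interactions of 1.24 and 1.59. In the opposite direction Hspb9, a small heat shock protein, averaged 3.54 ± 0.19 in ND and 4.03 ± 0.44 in NN, with 3.97 ± 0.14 in DD and 3.41 ± 0.17 in DN. Epdr1, B3galt4 and the transporter Slc16a11 had interactions of -1.01, -0.79 and -0.95 that came mostly from DD and DN, since their ND minus NN differences were -0.24, -0.16 and -0.18. All 8 had adjusted p = 0.114.

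For Bcl6 the interaction was 2.18 (adjusted p = 0.114), with a DD minus DN difference of -0.59, and for Nr1i3 it was 1.76 (adjusted p = 0.114). For Il6r it was 0.49 (adjusted p = 0.202) and for Cish -1.06 (adjusted p = 0.295). None of these genes, Bcl6 and Nr1i3 included, was shown to differ between the pregnancy diets on the full set of arrays. The interaction depended on 1 NN array. Without NN 2 limma called 639 genes, 483 positive and 156 negative. All had the sign they had on the full set of arrays, which was largely fixed in advance because both fits share every other array. Among the called genes were Nr1i3 (2.15, adjusted p = 0.0219), Brwd1 (1.32, adjusted p = 0.0269) and Zmpste24 (1.24, adjusted p = 0.0269), but not Bcl6 (2.16, adjusted p = 0.0505). Array spread as a covariate left 0 calls with a smallest adjusted p of 0.985, and both changes together, chosen after the data had been seen, also gave 0. Array spread was higher in ND than NN and lower in DD than DN on average, and its part in this pattern was not tested.

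**Figure D5:**
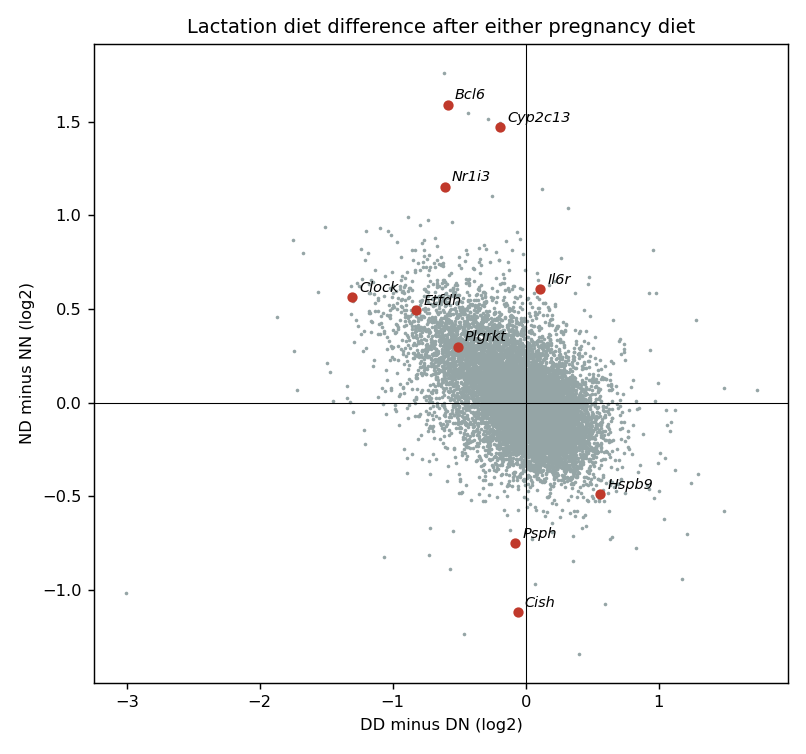
Each point is 1 of 12912 genes, with the DD minus DN difference (log2) on the horizontal axis and the ND minus NN difference (log2) on the vertical axis; named genes are red. The cloud slopes downward (Pearson r = -0.518 across genes), with Bcl6 at 1.59 and Nr1i3 at 1.15 on the vertical axis and Cish at -1.12.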

How the data were processed

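Biotin-labelled cDNA made from total liver RNA with an Affymetrix kit was measured on arrays, per the labels' protocols. The authors deposited log2 probe set signals, made with RMA and affy per the submitters' processing notes, which give no versions; the base of 2 was assumed. Of 36685 probe sets, 14824 had 1 gene symbol in the platform annotation, 829 several and 21032 none here. The probe set of highest mean was kept for each of 14557 genes, and 12912 genes were tested, those that exceeded 1.73 (the 25th percentile over the table) on 4 or more arrays. Dim means a mean under the 50th percentile (2.58).

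Differences were estimated with limma 3.58.1 in R 4.3.3 as 4 group means over 17 arrays (13 residual degrees of freedom), with Benjamini-Hochberg adjustment and a threshold of 0.05. Values after ± are SEs of differences and SDs of means. Named genes are the 12 of smallest p per direction above the 50th percentile and 16 fixed genes where measured. The fixed genes belong to choline, methionine, serine and folate handling and to growth hormone action, with Il6r added. Psph, Aldh1l2 and Bcl6 are among them. Also named are members of smallest p from 33 lists (658 of 929 entries tested), and the 4 of smallest interaction p per direction. Members and lists were chosen with earlier results of these data known. On simulated data for ND against NN with 200 of 12912 genes altered, 25.4% of 1.5-fold, 70.1% of 2-fold and 100% of 4-fold changes were recovered, with 4 false calls. The simulated noise was normal and independent between genes and arrays. The real arrays differ in spread, so these rates need not hold for them. Alternatives were other filters, probe set rules, variance models, normalisations, covariates, the replicate number as a block, and leaving out each array. No label gives a batch or scan date. Figures used matplotlib 3.10.9.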

Additional observations from a re-analysis of the deposited data

Results flagged for a closer look

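In 240 sets of 4 values (the ND and NN livers of the genes named, and array measures), 17 had 1 liver far from the other 3 by Dixon's criterion, where chance gives about 1 in 20. Cyp2c13 stood at 7.43 in ND 4, against 1.48 to 2.09 in the other ND livers, and Zbtb20 was also highest in ND 4, at 6.18. That liver had the lowest ND value of Cth (9.08), Pla2g6 (3.30) and B3galt4 (3.34). ND 2 was highest for Ppargc1a (5.04, with 3.52 to 3.67 in the others), Oprd1 (2.86) and Rhag (3.20), and lowest for Clmn (5.03), Aldh1l2 (5.50), Amd1 (4.07) and Acox2 (8.80). ND 1 was highest for Pcyt1a (4.78). In the NN group, NN 4 was lowest for Gnmt (6.45, with 7.53 to 7.75 in the others) and Cps1 (9.59), NN 3 for Dcn (2.64) and NN 2 for Nmnat2 (3.05).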

How the results depend on the processing

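The count of 0 adjusted calls between ND and NN was the same under all 30 alternatives, a threshold of 0.1 included; the smallest adjusted p with array weights was 0.439 and without NN 2 0.304. The unadjusted lists, 355 higher and 243 lower, ranged from 186 to 828 and from 122 to 584 when arrays were left out. They held 717 and 539 genes with array weights, 620 and 634 with all probe sets (29730 tested), 130 lower with the stricter filter (9521 tested), 146 lower with median centring, which shifted the median gene by 0.040, and 156 higher with array spread as a covariate. The interaction calls ranged from 0 to 639, and its unadjusted list of 2580 from 1790 to 3360, with 5214 for all probe sets and 580 with the covariate. With the covariate and without NN 2, an alternative added after seeing the data, 166 genes were higher and 688 were on the interaction list. The ND minus NN difference in array spread, 0.042, ranged from 0.026 to 0.070. The cause of these shifts was not tested, except that all probe sets and the stricter filter change how many are tested.

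With the replicate number as a block, 0 genes were called and the lists held 449 and 261. The numbers did not pair the livers: deviations of same-numbered ND and NN arrays correlated at -0.031, -0.454, 0.175 and -0.396, and 0 of 4 ND arrays correlated best with its own number. It changed no call.

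Of 117 genes named, 3 changed sign. Chdh was -0.012 with array weights, -0.066 after repeated quantile normalisation, -0.22 with the covariate, -0.33 with the covariate and without NN 2, and -0.12 to 0.20 when an array was left out, negative without NN 3 and without ND 4 (-0.096). Pcyt1a was -0.019 after repeated normalisation, -0.015 (without NN 1) to 0.12 when an array was left out, and -0.045 with the covariate and without NN 2, where Aldh1l2 was -0.14. In the short promoter window, 100 bases before the start, Cish held 0 matches and 1 of the named genes held any.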

Other observations

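Some genes of fasting, picked after their values were seen, stood apart in single ND livers. Over the whole fasting and FOXO list the mean signal ran from 4.85 to 5.56 in ND livers and from 4.40 to 5.23 in NN livers, so the NN livers spread at least as widely. ND 2 had the highest ND value of Bcl6 (5.79), Lpin1 (8.12, with 6.02 to 6.66 in the other ND livers) and Tat (9.53). ND 1 was close to ND 2 for Bcl6 (5.44) and Tat (9.41). Igfbp1 and Pck1, an insulin-repressed secreted protein and the rate-limiting gluconeogenic enzyme, were looked up after these values were seen. Igfbp1 read 8.48 in ND 2 and 4.52 to 5.66 in the other ND livers, against 3.81 to 6.74 in NN livers. Pck1 read 10.07 in ND 2, with 4.62 to 8.95 in the other ND livers and 7.11 to 7.97 in NN livers. ND 4 had the lowest ND value of Bcl6 (3.91) and Pck1 (4.62) and the highest of Cyp2c11 (6.79) and Cyp2c13 (7.43). The labels do not state when the pups last fed.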
